A study of Mus musculus with 32 samples.

Results

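Macrophages and tumour cells sorted from the same mouse gliomas were compared at the stage that the study calls Rebound. The members were all libraries labelled with that stage, which is 10 of the 32 libraries of the series. There were 5 of tumour-associated macrophages and microglia (TAM) and 5 of tumour cells (TC). Every gene of the deposited table entered the comparison. In the study, Rebound tumours are gliomas that grew again under BLZ945, an inhibitor of the receptor for colony stimulating factor 1 (CSF-1R), on which macrophages depend. The libraries came from 6 mice. Both sorts were available from 4 of them, TAM alone from mouse 49834 and TC alone from mouse 49692. The comparison asks which cell makes which signal, receptor and matrix protein in a glioma that has escaped the inhibitor.

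All mice, in the Rebound, Vehicle and Endpoint groups alike, were XFM mice, a strain name that the labels do not spell out. At 5 to 6 weeks of age they received an injection into the brain of DF-1 cells, a chicken fibroblast line, carrying the growth factor PDGFB. They entered the trial once the tumour measured 20 to 40 cubic millimetres. Rebound mice, like Endpoint mice, were given BLZ945 each day, and Vehicle mice the vehicle, until symptoms appeared or the age of 26 weeks was reached. Since all libraries, those of Vehicle mice too, carry BLZ945 as their agent, the stage label was used to tell the treatments apart. Cells released with papain were sorted as TC when they carried PDGFRA, the PDGF receptor alpha, and as TAM when they carried CD11b without Gr1. Glial progenitors of the host brain also carry PDGFRA, and the CD11b gate takes resident microglia together with macrophages derived from monocytes, so neither gate separates those sources.

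Microglia and macrophages of a glioma are myeloid cells. Their identity is set by transcription factors such as PU.1, their survival depends on signals through CSF-1R, and they present antigen, clear debris and secrete growth factors. Tumour cells of PDGF-driven gliomas resemble oligodendrocyte progenitors: they carry OLIG and SOX transcription factors, produce brain matrix proteoglycans and bear receptors for the growth factors and neurotransmitters around them. Signals pass both ways. Insulin-like growth factor 1 from macrophages can act on its receptor on tumour cells and feed the PI3K pathway, and CSF-1 or interleukin 34 from tumour cells can act on CSF-1R of macrophages.

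Sequences upstream of 6 genes are shown first because they belong to genes on which the comparison turns, and because they carry letters read by the factors that define each cell type. For the macrophage side these are C1qc, a chain of the complement initiator C1q, Ctss, the lysosomal protease cathepsin S, Pik3cg, the catalytic PI3K subunit gamma, and Inpp5d, the lipid phosphatase SHIP1 that opposes PI3K. For the tumour side they are Sox2, a stem cell transcription factor, and Plxnb1, a receptor of semaphorin 4D. The windows run from 250 bases before to 50 bases after the annotated start (RefSeq, GRCm38.p6), on the strand of the gene, and capitals mark matches to GAGGAAGT, the PU.1 type, in the first 4 and to ACAATGG or ACAAAGG, the SOX type, in the other two, on either strand. The windows lie at chr4:136892865-136893164 on the minus strand, chr3:95526536-95526835 on the plus strand, chr12:32208610-32208909 on the minus strand, chr1:87620062-87620361 on the plus strand, chr3:34649745-34650044 on the plus strand and chr9:109095186-109095485 on the plus strand.
C1qc: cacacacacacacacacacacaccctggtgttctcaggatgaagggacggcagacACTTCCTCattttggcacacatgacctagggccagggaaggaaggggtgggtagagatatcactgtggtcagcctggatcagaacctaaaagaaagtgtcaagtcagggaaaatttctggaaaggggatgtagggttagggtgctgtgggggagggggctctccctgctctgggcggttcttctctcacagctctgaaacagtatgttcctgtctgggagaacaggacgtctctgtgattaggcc
Ctss: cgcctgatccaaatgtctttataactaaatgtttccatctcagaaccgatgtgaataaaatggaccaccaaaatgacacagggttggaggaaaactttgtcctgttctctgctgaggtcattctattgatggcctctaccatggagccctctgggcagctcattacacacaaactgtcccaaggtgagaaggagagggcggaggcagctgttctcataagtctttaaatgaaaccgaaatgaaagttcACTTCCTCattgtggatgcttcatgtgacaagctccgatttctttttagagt
Pik3cg: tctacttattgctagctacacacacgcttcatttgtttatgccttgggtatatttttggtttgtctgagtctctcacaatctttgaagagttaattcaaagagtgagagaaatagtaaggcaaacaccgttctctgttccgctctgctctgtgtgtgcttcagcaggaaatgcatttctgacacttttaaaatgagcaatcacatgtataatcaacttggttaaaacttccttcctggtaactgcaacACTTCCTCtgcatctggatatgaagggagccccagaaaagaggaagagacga
Inpp5d: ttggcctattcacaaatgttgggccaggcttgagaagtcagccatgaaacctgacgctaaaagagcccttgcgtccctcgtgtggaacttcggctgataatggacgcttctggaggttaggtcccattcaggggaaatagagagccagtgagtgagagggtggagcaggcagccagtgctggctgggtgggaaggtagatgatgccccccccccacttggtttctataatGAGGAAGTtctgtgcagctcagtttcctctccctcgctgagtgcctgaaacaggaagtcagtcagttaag
Sox2: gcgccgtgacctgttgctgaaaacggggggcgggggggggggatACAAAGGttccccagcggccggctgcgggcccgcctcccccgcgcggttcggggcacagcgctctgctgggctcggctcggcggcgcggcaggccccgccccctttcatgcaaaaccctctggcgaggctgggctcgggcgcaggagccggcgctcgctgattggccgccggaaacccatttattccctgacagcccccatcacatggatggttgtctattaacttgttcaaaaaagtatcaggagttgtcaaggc
Plxnb1: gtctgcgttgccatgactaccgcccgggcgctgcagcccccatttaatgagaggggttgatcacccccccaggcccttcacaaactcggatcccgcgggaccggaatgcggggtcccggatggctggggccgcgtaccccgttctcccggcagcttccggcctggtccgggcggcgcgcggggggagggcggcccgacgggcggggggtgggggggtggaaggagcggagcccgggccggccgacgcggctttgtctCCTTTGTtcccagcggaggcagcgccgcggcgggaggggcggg
The PU.1 type letters began 2 bases before the start in Ctss and Pik3cg, 20 bases before it in Inpp5d and 195 bases before it in C1qc. A window was found for 11006 of the 13901 genes tested. GAGGAAGT was in 4.86% of the windows of genes higher in TAM, 1.72% of those of genes lower in TAM, 3.05% of those of genes not called and 3.28% of all 27025 windows. The SOX type letters, which do not overlap the other motif, were in 5.46% of windows of genes higher in TAM, 6.83% of genes lower in TAM and 5.79% of genes not called, and in 9.24% of all windows. A CCAAT box, searched in the same way, was in 36.6%, 39.1% and 39.1% of those 3 groups. An E-box (CAGCTG) was in 15.4%, 16.3% and 14.5%. The NRF1 type (TGCGCATG) was in 2.94%, 3.63% and 4.54%, so a motif searched for comparison differed between the groups too. A match describes letters, not a bound site.

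Totals were 15352174 to 19561440 counts in TAM libraries and 10501264 to 16460126 counts in TC libraries. Each deposited count of these libraries is an even number. The 10 most abundant genes took 17.7 to 22.1% of the counts in TAM libraries and 8.85 to 14.1% in TC libraries, and library sizes were therefore scaled with the trimmed mean of M values (TMM). Levels are given in CPM, counts relative to this scaled library size. Values are listed by mouse, in the order 49041, 49059, 49827, 49834 and 49849 for TAM libraries and 49041, 49059, 49692, 49827 and 49849 for TC libraries.

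Defining markers followed the labels in 9 libraries, and 1 library stood apart. Itgam, which encodes CD11b, had 1512, 1576, 1537, 1808 and 2252 CPM in TAM libraries, against 0.971, 1, 1.69, 25.6 and 1.27 CPM in TC libraries. Pdgfra had 11.2, 41.7, 7.1, 33.2 and 22 CPM in TAM libraries, against 1281, 2107, 1748, 445 and 2367 CPM in TC libraries. Both served in the gates and are given as a description only. The 16 myeloid markers summed to 31252 to 55468 CPM in TAM libraries and to 87.5 to 161 CPM in 4 TC libraries, but to 2591 CPM in the TC library of mouse 49827 (TC 49827). The 12 glial progenitor markers summed to 67.7 to 396 CPM in TAM libraries and to between 2531 CPM, in TC 49827, and 8104 CPM in TC libraries. TC 49827 also held 3540 CPM of 9 T and NK cell markers, against at most 24.2 CPM in the other TC libraries and 9.41 to 214 CPM in TAM libraries, and the largest sums of oligodendrocyte (14763 CPM) and astrocyte markers (6270 CPM). Its log2 CPM over all genes correlated with those of the other TC libraries at 0.74 to 0.77 and with those of TAM libraries at 0.64 to 0.68, while the other TC libraries correlated with TAM libraries at 0.45 to 0.55. Results are given with TC 49827, and again without it where it ends or makes a call or moves a fold change by over 1.5 times. A value with mouse as a block, from another fit or on unscaled totals likewise stands beside a gene where it ends the call. The test against a 2-fold change, which sets a higher bar, is left out beside genes. A value without another library stands beside a gene where it ends the call or moves the fold change by over 1.5 times. For gene lists, such values are given for some lists only. The 3 libraries richest in T and NK markers, also left out together, were TC 49827, TAM 49059 and TAM 49041. In bulk samples, fewer cells of a type and less RNA per cell cannot be told apart.

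Both libraries of mouse 49827 were low in Xist, the RNA of the inactive X chromosome, at 0.178 CPM in TAM and 1.84 CPM in TC, against 379 to 562 CPM in the other TAM and 366 to 555 CPM in the other TC libraries. Neutrophil markers summed to 72.1 to 2886 CPM in TAM libraries, highest in mouse 49059, and to 0.802 to 1.68 CPM in TC libraries. Fibroblast and pericyte markers summed to 13.8 to 173 CPM in TAM and 97.3 to 6831 CPM in TC libraries, highest in mouse 49041. The median myeloid marker stood in the other 4 TC libraries at 0.0896 to 0.174% of its TAM level, and the median glial progenitor marker in TAM libraries at 1.66 to 6.1% of its TC level.

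**Figure D1:**
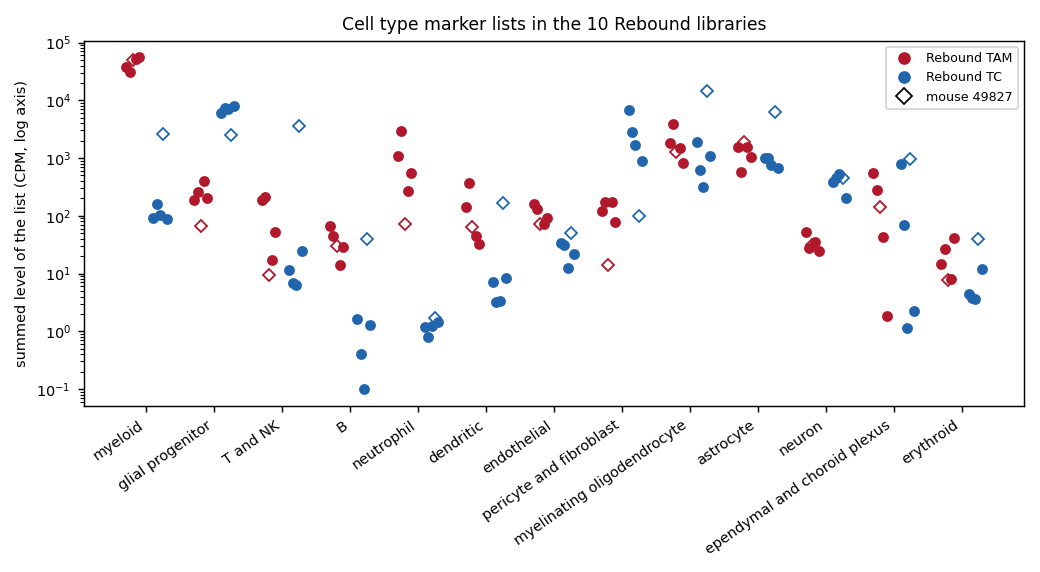
Summed level (CPM, log axis) of each cell type marker list in the 5 Rebound TAM (red) and 5 Rebound TC (blue) libraries, with open diamonds for mouse 49827 and a library at 0 drawn at 0.1. TAM libraries lie above TC libraries in myeloid markers and below them in glial progenitor markers, and the TC library of mouse 49827 holds 2591 CPM of myeloid and 3540 CPM of T and NK markers.

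TAM and TC transcriptomes differed in about as many genes upward as downward. With edgeR's quasi-likelihood test and Benjamini-Hochberg adjusted p under 0.05, 3319 of 13901 genes tested were higher in TAM (23.9%) and 3712 were lower (26.7%), and the median log2 fold change over all genes was -0.04. Of the genes called, 438 were higher and 462 lower by at least 5 on the log2 scale. Of the 7031 genes called, 5416 had no overlap between TAM and TC libraries, so lack of overlap is usual for a called gene. Counts of gene lists below are to be read beside the 23.9% and 26.7% of all genes. For 3686 genes the 95% interval lay within a 2-fold difference either way, and 3248 of these were not called. Without TC 49827, 3777 of 14124 genes tested were higher (26.7%) and 4069 lower (28.8%), and 6710 of the 7031 calls were made again in the same direction. On total counts with no scaling factor the median moved to -0.83, with 1702 genes higher and 7383 lower, so that 18.7% of the calls were higher against 47.2% with TMM, and every difference here is relative to the TMM scale.

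Named here are members of the 15 genes each way with the largest differences at 50 CPM or more and no overlap between TAM and TC libraries. The separation of their values, here and in the next paragraph, was thus set by the choice and is a description only. Msr1, the macrophage scavenger receptor, had 99, 328, 36.9, 243 and 181 CPM in TAM libraries, against 0.108, 0.602, 0.266, 0.306 and 0.0907 CPM in TC libraries (log2 fold change 9.31, SE 0.81, adjusted p = 1.73e-05). C5ar1, the receptor of the complement fragment C5a, had 85.5, 781, 73.5, 346 and 502 CPM in TAM libraries, against 0.216, 0.602, 0.177, 0.306 and 0.272 CPM in TC libraries (log2 fold change 10.12, SE 0.92, adjusted p = 2.15e-05). Among TAM libraries both genes were lowest in mouse 49827. Ngp, a neutrophil granule protein, had 3624 counts summed over TAM libraries and 2 over TC libraries. The group also held F13a1, coagulation factor XIII A (10.48, and 11.64 without TC 49827), Alox15, a lipoxygenase (10.43, and 9.58 without TAM 49059 and 11.21 without TC 49692), Ccr1, a chemokine receptor (9.11, and 7.98 without TAM 49059 and 10.04 without TC 49059), Ms4a7 (9.20, and 10.16 without TC 49827), Il1b, the cytokine interleukin 1 beta (9.11, and 10.65 without TC 49827 and 8.34 without TAM 49059), Cd14, the endotoxin co-receptor (8.71, and 9.75 without TC 49827), and Retnlg, a resistin-like protein (9.80, and 8.73 without TAM 49059). Ngp and Retnlg are genes of neutrophils, which the gate without Gr1 is meant to remove. Their marker sums are given above, and the part of those cells in the values was not tested.

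On the tumour side, Lrrtm3, a postsynaptic adhesion protein, had 0.862, 0.302, 1.95, 1.49 and 1.28 CPM in TAM libraries, against 148, 291, 308, 55.1 and 225 CPM in TC libraries (log2 fold change -7.45, SE 0.65, adjusted p = 1.75e-05). Sstr1, a somatostatin receptor, had 2.44, 0.755, 0.178, 1.66 and 0.852 CPM in TAM libraries, against 370, 120, 131, 59.8 and 110 CPM in TC libraries (log2 fold change -7.05, SE 0.76, adjusted p = 5.43e-05). The TC values were 55.1 CPM or more in each library and the TAM values 2.44 CPM or less. Others in this group were Kcnd3, a potassium channel subunit (-6.71, and -7.58 without TAM 49059), Cntn4, an axonal contactin (-6.51), Ntrk3, the neurotrophin 3 receptor (-6.48), Mmp15, a membrane matrix metalloproteinase (-6.47), Adam12 (-6.28) and the protocadherins Pcdh15 (-6.41) and Pcdh11x (-6.39, and -7.10 without TAM 49834).

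Transcription factors followed the 2 identities. Of 20 macrophage and microglia factors tested, 16 were higher in TAM and the other 4 were not called (median log2 fold change 3.19, against -0.04 over all genes). Sfpi1, the gene of PU.1, had 82.3, 149, 75.1, 98.5 and 122 CPM in TAM libraries, against 0, 0, 0.177, 2.6 and 0.0907 CPM in TC libraries (log2 fold change 7.68, SE 1.21, adjusted p = 0.000518, and 10.33 without TC 49827). Irf8, which acts with PU.1, had 679, 784, 781, 783 and 717 CPM in TAM libraries, against 14.7, 115, 55.5, 47.4 and 38.5 CPM in TC libraries (log2 fold change 3.79, SE 0.47, adjusted p = 0.000119). PU.1 was near absent from TC libraries, while Irf8 was found in each of them at 14.7 CPM or more. Sall1, which marks resident microglia and not monocyte-derived macrophages, had 247, 102, 417, 216 and 221 CPM in TAM libraries, against 10.4, 28.9, 34.7, 17.3 and 19.5 CPM in TC libraries (log2 fold change 3.44, SE 0.43, adjusted p = 0.000127). It was highest in TAM of mouse 49827 and lowest in TAM of mouse 49059. Ikzf1, a leukocyte factor, had 127 CPM in TC 49827 and at most 3.34 CPM in the other TC libraries. It was not called (log2 fold change 3.36, SE 1.47, adjusted p = 0.0806), but was called without TC 49827 (log2 fold change 7.54, adjusted p = 1.05e-05) and with mouse as a block (adjusted p = 0.0396).

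Of 21 glial progenitor and neural factors tested, 19 were lower in TAM and the other 2 were not called (median -4.54). Olig2, which specifies oligodendrocyte progenitors, had 0.575, 0.906, 0.533, 1.99 and 1.99 CPM in TAM libraries, against 30, 92.8, 53.5, 9.79 and 113 CPM in TC libraries (log2 fold change -5.63, SE 0.75, adjusted p = 0.00019). Sox2 had 2.59, 3.02, 2.13, 5.48 and 1.85 CPM in TAM libraries, against 62.6, 77.2, 79.8, 44.5 and 67.9 CPM in TC libraries (log2 fold change -4.46, SE 0.34, adjusted p = 8.07e-06). The groups did not overlap in either gene, and TC 49827 was the lowest TC library in both. Sox10 (-4.78), Pou3f2 (-5.67) and Nfib (-4.96) were lower in TAM too.

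**Figure D2:**
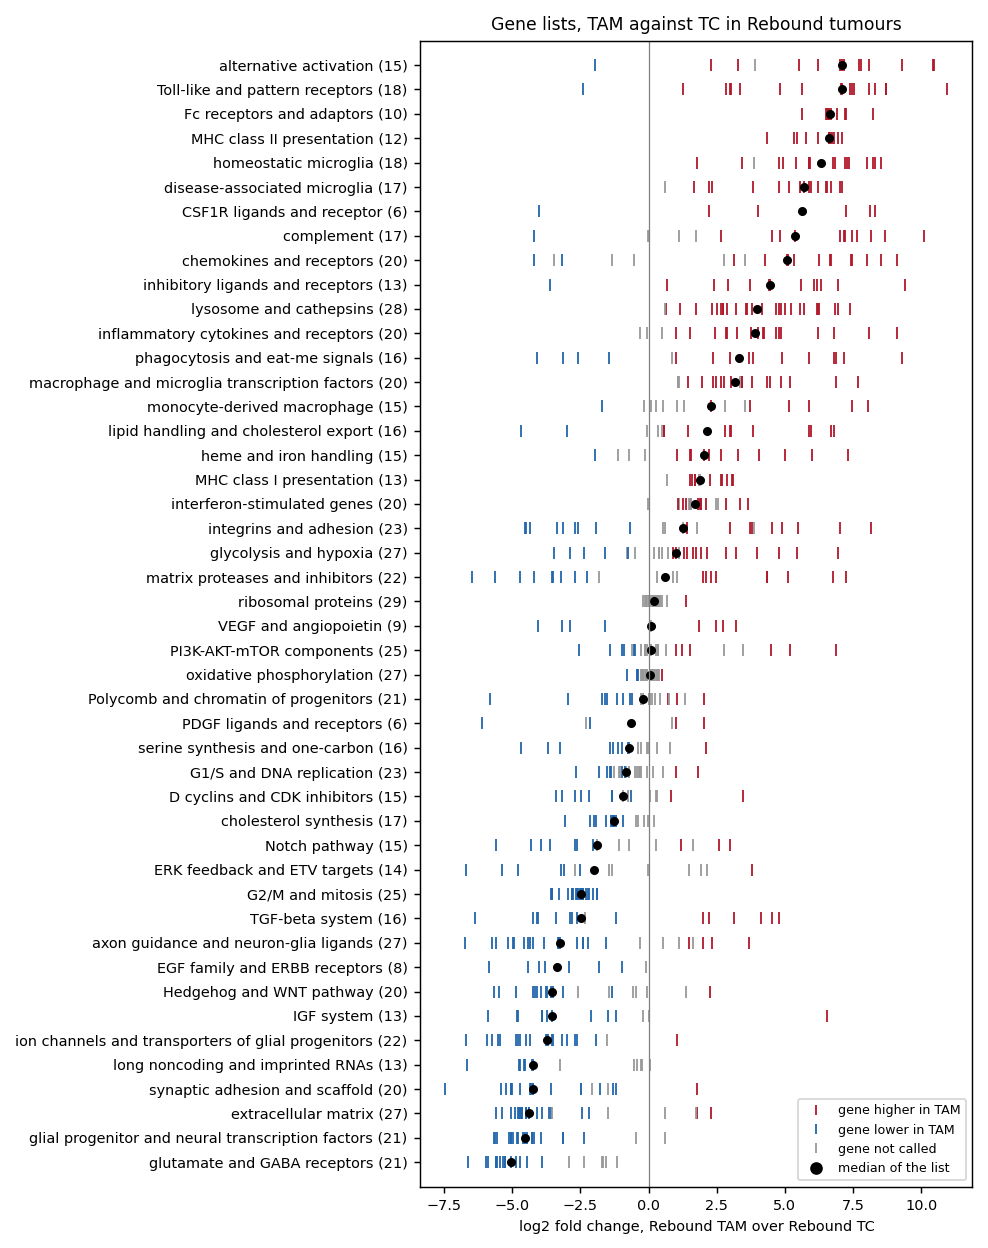
Log2 fold change of Rebound TAM over Rebound TC (x axis) for each tested gene of each list (ticks), red where higher in TAM, blue where lower and grey where not called, with the list's median as a black dot and the number tested in brackets. Medians run from 7.10 for alternative activation genes to -5.03 for glutamate and GABA receptors, and ribosomal proteins (0.20, or -0.59 on unscaled totals) and oxidative phosphorylation (0.04, or -0.74) lie near 0.

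In the insulin-like growth factor system the ligand Igf1 stood on the macrophage side and most of the remaining genes on the tumour side. Of 13 genes tested, 1, Igf1, was higher in TAM and 10 were lower (median -3.54). Igf1 (chromosome 10, 87858265 to 87937042, plus strand, GRCm38) had 637, 349, 425, 458 and 438 CPM in TAM libraries, against 8.42, 5.12, 1.51, 8.42 and 1.36 CPM in TC libraries (log2 fold change 6.54, SE 0.63, adjusted p = 2.92e-05). TAM levels spanned less than a 2-fold range and lay far above TC levels. Its receptor Igf1r (chromosome 7, 67952827 to 68233668, plus strand) had 33.2, 19, 21.7, 13.5 and 14.3 CPM in TAM libraries, against 67.3, 61.8, 60.2, 38.3 and 55.9 CPM in TC libraries (log2 fold change -1.48, SE 0.27, adjusted p = 0.00118). The highest TAM library was below the lowest TC library, and Igf1r was thus present in both cell types.

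Binding proteins, which hold IGFs outside cells, were on the tumour side in all 5 cases tested. Igfbp5 had 22.4, 19.8, 5.15, 24.4 and 10.1 CPM in TAM libraries, against 1081, 667, 298, 142 and 125 CPM in TC libraries (log2 fold change -4.82, SE 0.75, adjusted p = 0.00048). TC of mouse 49041 was the highest, as it was in fibroblast and pericyte markers, which summed to 97.3 to 6831 CPM in TC libraries. The part of such cells in the levels of binding proteins was not tested. Igfbp3 (-5.88), Igfbp2 (-4.78), Igfbp7 (-3.91, and -4.53 without TAM 49059 and -3.24 without TC 49041) and Igfbp4 (-2.10) were lower in TAM as well. Irs1, the substrate that links the receptor to PI3K, had 8.77, 5.44, 5.68, 17.1 and 4.68 CPM in TAM libraries, against 213, 81.4, 147, 29.5 and 83.3 CPM in TC libraries (log2 fold change -3.73, SE 0.57, adjusted p = 0.000463). The insulin receptor Insr (-1.21, and adjusted p = 0.126 with mouse as a block) and the adaptor Grb10 (-3.91, and -5.26 without TAM 49849 and adjusted p = 0.075 with mouse as a block) were lower in TAM. Igf2, the fetal ligand, was lower too, with groups that overlapped (log2 fold change -3.54, SE 1.16, adjusted p = 0.0269, and -4.79 without TAM 49041 and adjusted p 0.0562 to 0.0605 without TAM 49059 or TAM 49849 or TC 49041).

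PI3K pathway genes were called about as often in each direction as all genes were (23.9% higher and 26.7% lower). Of 25 components tested, 6 were higher in TAM and 6 lower, with a median that changes sign with scaling (0.10, or -0.66 on unscaled totals, where 4 were higher and 14 lower). Those higher included leukocyte forms and modifiers, among them Pik3cg (4.48, and 8.20 without TC 49827), the SHIP1 gene Inpp5d (5.19, and 9.36 without TC 49827) and the adaptor Pik3ap1 (6.89, and 9.93 without TC 49827), together with Pik3cb (1.53) and Rptor (1.24, and 0.45 on unscaled totals). Pik3cg had 215, 323, 378, 365 and 357 CPM in TAM libraries, against 0.971, 1.4, 0.621, 69.5 and 1.27 CPM in TC libraries. The level in TC 49827 was many times that of the other TC libraries. Lower in TAM were the regulatory subunits Pik3r1 (-0.91) and Pik3r3 (-2.55) and the kinase Akt2 (-0.96). The subunits Pik3cd and Pik3r5 were not called (adjusted p = 0.0516 and 0.0843), but were called higher without TC 49827 (adjusted p = 8.89e-07 and 4.26e-07) and with mouse as a block (adjusted p = 0.0323 and 0.038).

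The receptor that BLZ945 inhibits was a macrophage transcript in Rebound tumours. Csf1r had 6401, 3751, 6708, 6285 and 6049 CPM in TAM libraries, against 11.2, 3.81, 4.52, 72.4 and 1.54 CPM in TC libraries (log2 fold change 8.29, SE 1.21, adjusted p = 0.000345, and 10.05 without TC 49827). The highest TC value was that of TC 49827. Its ligands lay on opposite sides. Csf1 had 75.7, 242, 194, 247 and 172 CPM in TAM libraries, against 33.8, 84.6, 32.3, 16.5 and 31.3 CPM in TC libraries (log2 fold change 2.23, SE 0.45, adjusted p = 0.00232). TAM of mouse 49041 was below TC of mouse 49059. Il34, the other ligand, had 3.31, 2.27, 0, 2.33 and 2.41 CPM in TAM libraries, against 81.2, 32.3, 26.6, 3.52 and 24.2 CPM in TC libraries (log2 fold change -4.01, SE 0.95, adjusted p = 0.00547). Each TC library was above each TAM library. The receptor subunits of the related factor GM-CSF, Csf2ra (4.03) and Csf2rb (7.23, and 9.97 without TC 49827), and Csf3r (8.14, and 10.46 without TC 49827), were higher in TAM, and Csf2 itself had too few counts to be tested.

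**Figure D3:**
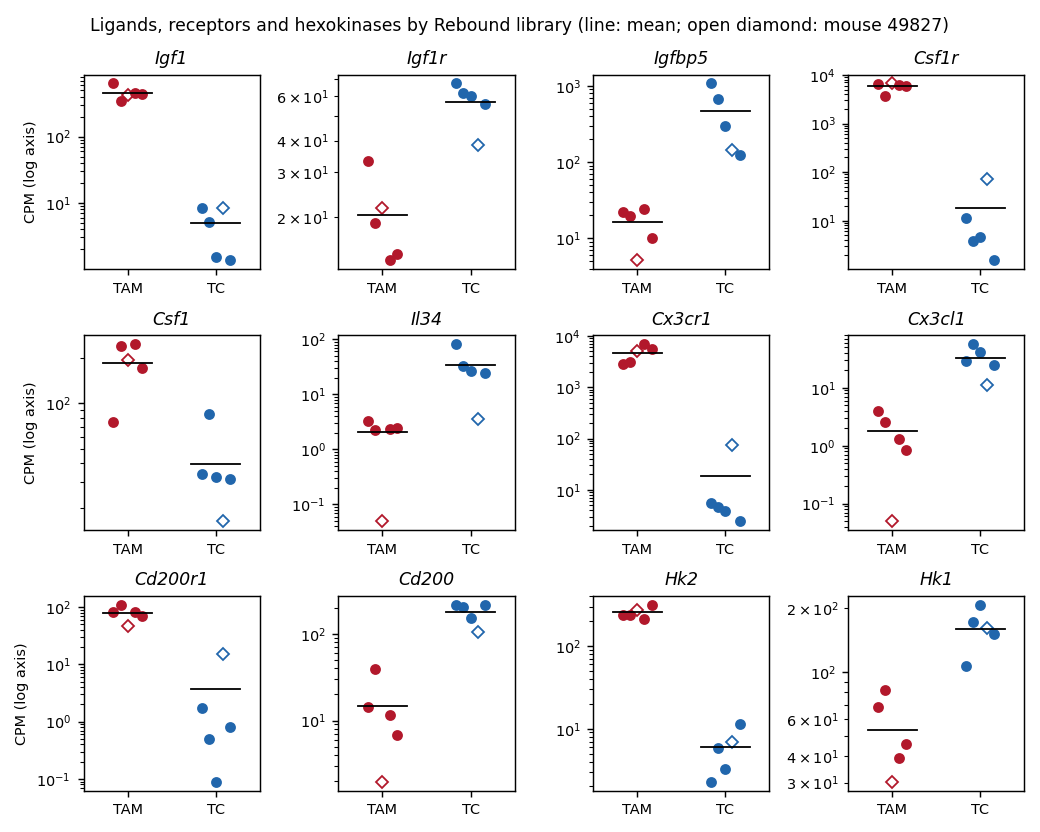
CPM on a log axis of 12 genes in each Rebound TAM (red, left) and TC (blue, right) library, with lines for group means, open diamonds for mouse 49827 and a library at 0 drawn at 0.05. Igf1, Csf1r, Cx3cr1, Cd200r1 and Hk2 lie higher in TAM, and Igf1r, Igfbp5, Il34, Cx3cl1, Cd200 and Hk1 lie lower, each without overlap, whereas Csf1 overlaps.

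PDGF ligands were found in both sorts. Pdgfa, which activates PDGFRA, had 27.4, 33.1, 18.3, 31.2 and 38.9 CPM in TAM libraries, against 7.01, 9.13, 6.65, 7.19 and 6.53 CPM in TC libraries (log2 fold change 2.03, SE 0.23, adjusted p = 7.74e-05). Every TAM library exceeded every TC library. Pdgfb, a gene that the tumour model also supplies from outside, had 36.5, 55.3, 54.5, 30.1 and 27.5 CPM in TAM libraries, against 14.7, 34.4, 21.4, 9.79 and 20.5 CPM in TC libraries (log2 fold change 1.02, SE 0.34, adjusted p = 0.03, and adjusted p = 0.19 without the 3 libraries richest in T and NK markers, adjusted p = 0.0506 without TC 49827, adjusted p = 0.0601 with mouse as a block, adjusted p 0.0638 to 0.0798 without TAM 49059 or TAM 49827 or TC 49041 or TC 49692 or TC 49849 and 0.23 on unscaled totals). The groups overlapped. Pdgfra itself served to sort the TC cells. The receptor Pdgfrb was lower in TAM (log2 fold change -2.16, SE 0.64, adjusted p = 0.0169, and adjusted p = 0.0779 by voom with mouse as a random block and adjusted p = 0.0948 with mouse as a block), beside the fibroblast and pericyte markers, of which it is one. Of 8 EGF family genes tested, 7 were lower in TAM and 4 with mouse as a block. Egfr had 0.575, 0, 0.355, 0.166 and 0.142 CPM in TAM libraries, against 32.4, 17.3, 14.2, 3.06 and 6.53 CPM in TC libraries (log2 fold change -5.85, SE 0.92, adjusted p = 0.000498, and -6.43 without TAM 49041). The growth factor gene Nrg1 (-3.80) lay on the same side.

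In the VEGF and TGF-beta systems ligands and receptors were split. Vegfa, the main factor of vessel growth, was lower in TAM (log2 fold change -2.87, SE 0.65, adjusted p = 0.00415, and -2.18 without TC 49059), while its receptors Flt1 (2.46) and Nrp1 (2.72) were higher. Flt1 is one of the endothelial cell markers, which summed to 70.9 to 163 CPM in TAM and 12.5 to 50 CPM in TC libraries. The part of such cells in its level was not tested. Tgfb1 had 4.45, 6.8, 6.75, 4.32 and 4.97 CPM in TAM libraries, against 0.324, 0.301, 0.177, 0.765 and 0 CPM in TC libraries (log2 fold change 4.14, SE 0.80, adjusted p = 0.00167), at low levels throughout, and Tgfb2 had 7.04, 0.604, 7.64, 9.13 and 4.68 CPM in TAM libraries, against 52.4, 28.4, 41, 25.2 and 33.3 CPM in TC libraries (log2 fold change -2.63, SE 0.56, adjusted p = 0.0029). The receptors Tgfbr1 (4.80) and Tgfbr2 (3.15) were higher in TAM. The proteins that anchor latent TGF-beta divided as well: Lrrc33, the myeloid anchor, was higher (log2 fold change 4.52, SE 0.79, adjusted p = 0.000979, and 5.52 without TC 49827), while Ltbp1 (-4.25, and -3.34 without TC 49041 and adjusted p = 0.053 by voom with mouse as a random block), Lrrc32 (-4.06) and Bmp7, a related ligand (-6.37, and -7.59 without TAM 49059), were lower in TAM.

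Several axes that restrain macrophages had the ligand on the tumour side and the receptor on the macrophage side. Cx3cl1, the membrane chemokine fractalkine, had 4.02, 2.57, 0, 1.33 and 0.852 CPM in TAM libraries, against 29.1, 56.5, 41.2, 11 and 24.3 CPM in TC libraries (log2 fold change -4.19, SE 0.86, adjusted p = 0.00249). Its receptor Cx3cr1 had 2888, 3178, 5124, 6907 and 5674 CPM in TAM libraries, against 5.61, 4.51, 3.9, 75.7 and 2.45 CPM in TC libraries (log2 fold change 8.01, SE 1.23, adjusted p = 0.000461, and 10.11 without TC 49827). Cd200 had 14.2, 39, 1.95, 11.5 and 6.81 CPM in TAM libraries, against 215, 203, 154, 106 and 216 CPM in TC libraries (log2 fold change -3.60, SE 0.67, adjusted p = 0.00132, and -4.37 without TAM 49059). Its inhibitory receptor Cd200r1 had 82.1, 108, 45.8, 83.4 and 71 CPM in TAM libraries, against 1.73, 0.502, 0.0887, 15.3 and 0.816 CPM in TC libraries (log2 fold change 4.43, SE 1.12, adjusted p = 0.00781, and 6.59 without TC 49827). The groups did not overlap in any of these genes, as in 5416 of all 7031 genes called. Cd47, the signal against engulfment, differed less and overlapped, at 189, 226, 135, 116 and 150 CPM in TAM libraries and 107, 86.2, 77.2, 146 and 92.9 CPM in TC libraries (log2 fold change 0.68, SE 0.23, adjusted p = 0.0298, and adjusted p = 0.0986 with mouse as a block, adjusted p 0.0576 to 0.0933 without TAM 49041 or TAM 49059 or TC 49041 or TC 49059 or TC 49692 or TC 49849 and -0.09 on unscaled totals). Its receptor Sirpa was higher in TAM (log2 fold change 4.46, SE 0.29, adjusted p = 5.11e-06). Of 13 inhibitory ligands and receptors tested, 12 were higher in TAM and 1, Cd200, lower. With mouse as a block 9 were higher, on unscaled totals 9, and without TC 49827 11. Those higher in TAM included 4632428N05Rik, the gene of the checkpoint protein VISTA (5.58, and 8.65 without TC 49827), and Havcr2, which encodes TIM-3 (6.08, and 10.22 without TC 49827).

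Over 39 ligand and receptor pairs, 12 had both genes higher in TAM, 6 both lower, 4 the ligand higher and the receptor lower, and 8 the ligand lower and the receptor higher. In the other 9 pairs at least 1 gene was not called. Of all single genes tested, 23.9% were higher in TAM and 26.7% lower. Pairs with the ligand higher and receptor lower in TAM were Igf1 with Igf1r, Pdgfa with Pdgfra, Pdgfb with Pdgfrb and Sema4d with Plxnb1. Pdgfra served in the TC gate, so its side was set by the sort. Pdgfrb is also a fibroblast and pericyte marker. With mouse as a block neither Pdgfb nor Pdgfrb was called (adjusted p = 0.0601 and 0.0948). Sema4d, a semaphorin of leukocytes, had 546, 641, 548, 625 and 753 CPM in TAM libraries, against 22.3, 21.1, 23.4, 154 and 21.4 CPM in TC libraries (log2 fold change 3.69, SE 0.65, adjusted p = 0.000989, and 4.76 without TC 49827). Plxnb1 had 3.88, 5.29, 2.84, 2.82 and 0.568 CPM in TAM libraries, against 96.9, 44.1, 56, 35.5 and 78.7 CPM in TC libraries (log2 fold change -4.33, SE 0.54, adjusted p = 0.000122). The groups did not overlap in either gene. Pairs within the tumour sort included Ptn, pleiotrophin, with 22.4, 13.1, 4.79, 25.9 and 11.6 CPM in TAM libraries, against 844, 418, 531, 225 and 569 CPM in TC libraries (log2 fold change -5.05, SE 0.53, adjusted p = 4.87e-05). Its receptor Ptprz1 was lower in TAM as well (log2 fold change -5.61, SE 0.51, adjusted p = 2.08e-05). Of a pair from tumour cell to macrophage, Cxcl12 was lower in TAM (-3.16, and -3.77 without TAM 49059 and -2.28 without TC 49041) and its receptor Cxcr4 higher (3.13, and 3.83 without TC 49827 and adjusted p = 0.0731 with mouse as a block).

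**Figure D4:**
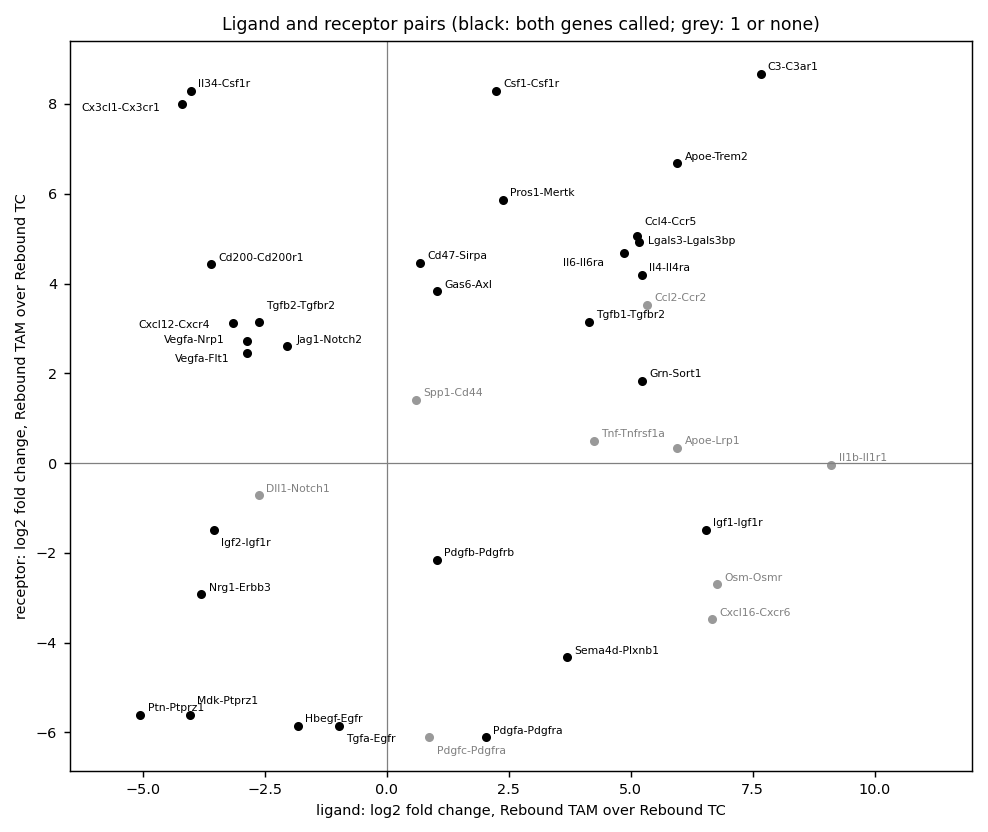
Log2 fold change of Rebound TAM over Rebound TC for the ligand (x axis) and the receptor (y axis) of each pair with both genes tested, black where both were called. Igf1-Igf1r, Pdgfa-Pdgfra, Pdgfb-Pdgfrb and Sema4d-Plxnb1 stand in black at lower right, with the ligand higher and the receptor lower in TAM, and Il34-Csf1r, Cx3cl1-Cx3cr1 and Cd200-Cd200r1 at upper left. Pdgfra served in the TC gate.

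Immune functions separated the sorts in nearly every gene of some lists. All 10 Fc receptor genes and adaptors tested (median 6.66) and all 12 genes of MHC class II presentation (median 6.62) were higher in TAM. Cd74, the invariant chain, had 48278, 56821, 32760, 7904 and 14620 CPM in TAM libraries, against 98.8, 71.4, 33, 958 and 23.5 CPM in TC libraries (log2 fold change 7.08, SE 1.32, adjusted p = 0.0014, and 9.09 without TC 49827). H2-Ab1 had 8276, 11614, 5030, 1172 and 1943 CPM in TAM libraries, against 27, 61, 9.32, 173 and 5.71 CPM in TC libraries (log2 fold change 6.67, SE 1.18, adjusted p = 0.00105, and 7.73 without TC 49827). Among TAM libraries both genes were highest in mouse 49059 and lowest in mouse 49834, and among TC libraries highest in TC 49827. The dendritic cell markers, summed, were 373 CPM in TAM of mouse 49059 and 32.8 to 140 CPM in the other TAM libraries, and 166 CPM in TC 49827 against at most 8.34 CPM in the other TC libraries. Their part in the class II levels was not tested.

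MHC class I genes, which most cells carry, differed less, with 10 of 13 higher in TAM (median 1.88). B2m, the light chain, had 5145, 5064, 8729, 5001 and 6500 CPM in TAM libraries, against 826, 1371, 258, 2037 and 209 CPM in TC libraries (log2 fold change 2.69, SE 0.61, adjusted p = 0.00416). The TC levels of this gene spread widely, from the low libraries of mice 49692 and 49849 to TC 49827. On unscaled totals 5 of 13 were higher. Of 20 interferon-stimulated genes, 12 were higher in TAM and the other 8 were not called (median 1.69), and 5 were higher on unscaled totals. Oas1a, an antiviral enzyme, was higher (log2 fold change 3.64, SE 0.77, adjusted p = 0.00295).

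Complement genes were macrophage transcripts with few exceptions. Of 17 tested, 12 were higher in TAM and 1 lower (median 5.39). Those higher include Itgam, whose side was set by the TAM gate. C1qc had 1754, 1477, 2575, 2605 and 2915 CPM in TAM libraries, against 3.24, 2.71, 2.04, 67.8 and 2.45 CPM in TC libraries (log2 fold change 7.18, SE 1.28, adjusted p = 0.00109, and 9.70 without TC 49827). C3, the central component, had 1468, 1253, 477, 289 and 573 CPM in TAM libraries, against 4.42, 4.61, 0.887, 9.33 and 0.907 CPM in TC libraries (log2 fold change 7.66, SE 0.90, adjusted p = 9.08e-05). C4b was abundant in both sorts, at 608, 730, 275, 201 and 550 CPM in TAM libraries and 688, 960, 218, 166 and 358 CPM in TC libraries, and was not called (log2 fold change -0.02, SE 0.52, adjusted p = 0.983). Serping1, which inhibits C1, was lower in TAM (log2 fold change -4.20, SE 0.82, adjusted p = 0.00181). Of 18 Toll-like and other pattern receptors, 17 were higher in TAM and 1 was lower (median 7.08), and 16 and 0 with mouse as a block. Clec4n, the lectin Dectin-2, had 6.9, 41.7, 5.15, 7.97 and 15.8 CPM in TAM libraries and no count in any TC library. Against a floor of 3 counts over the TC group it was 497-fold higher, which is no firm bound, since every count is even.

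Lysosomal genes were higher in TAM in 27 of 28 cases, with a median of 3.98 against -0.04 over all genes. Ctsd, cathepsin D, had 28975, 24971, 53709, 66311 and 69339 CPM in TAM libraries, against 558, 519, 407, 1471 and 348 CPM in TC libraries (log2 fold change 6.20, SE 0.59, adjusted p = 2.69e-05). Among 16 lipid handling genes 11 were higher and 2 lower in TAM. Apoe, the lipid carrier, had 15189, 15696, 43718, 50229 and 49082 CPM in TAM libraries, against 348, 128, 133, 2104 and 103 CPM in TC libraries (log2 fold change 5.95, SE 1.08, adjusted p = 0.00118, and 7.54 without TC 49827). The TAM libraries of mice 49041 and 49059 were well below the others. The receptor Trem2 (6.68, and 9.30 without TC 49827) and the exporters Abca1 (3.04) and Abcg1 (2.99) were higher too. Fabp7, the fatty acid binding protein of radial glia (-4.68), was lower.

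Cholesterol synthesis ran the other way, with 12 of 17 genes lower in TAM and the other 5 not called (median -1.27). Hmgcs1, an early enzyme of the pathway, had 90.2, 131, 87.7, 126 and 92.5 CPM in TAM libraries, against 540, 616, 369, 439 and 350 CPM in TC libraries (log2 fold change -2.13, SE 0.22, adjusted p = 3.68e-05). Sqle, squalene epoxidase, had 9.05, 44.4, 10.8, 19.6 and 20.2 CPM in TAM libraries, against 99.2, 305, 208, 39.9 and 229 CPM in TC libraries (log2 fold change -3.08, SE 0.61, adjusted p = 0.00193). TAM of mouse 49059 was above TC 49827.

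Cytokine and chemokine genes were mostly macrophage transcripts. Of 20 inflammatory cytokines and receptors, 17 were higher in TAM and the other 3 were not called (median 3.90). Il1b had 70.3, 240, 75.5, 36.2 and 37.3 CPM in TAM libraries, against 0, 0, 0.0887, 0.765 and 0.0907 CPM in TC libraries (log2 fold change 9.11, SE 1.10, adjusted p = 0.000111, and 10.65 without TC 49827 and 8.34 without TAM 49059). Both ranges lay far apart. Of 20 chemokines and receptors, 13 were higher and 2 lower in TAM, and 16 higher and 2 lower without TC 49827. Ccl2, which draws monocytes, had 18.7, 748, 55, 90.8 and 94.3 CPM in TAM libraries, against 6.04, 14.4, 0.887, 2.14 and 1.54 CPM in TC libraries (log2 fold change 5.33, SE 1.22, adjusted p = 0.00452, and 3.69 without TAM 49059 and 6.20 without TC 49059). TAM of mouse 49059 was far above the rest. Its receptor Ccr2 had 634, 478, 70.5, 125 and 171 CPM in TAM libraries, against 0.324, 0.401, 0.355, 127 and 0.0907 CPM in TC libraries. It was not called (log2 fold change 3.53, SE 1.84, adjusted p = 0.134), but was called without TC 49827 (log2 fold change 9.91, adjusted p = 2.24e-05). Cxcr6, a T and NK cell receptor, had 914 CPM in TC 49827 and at most 2.22 CPM in the other TC libraries, beside the T and NK markers of that library.

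Genes of alternative activation, a programme described in tissue repair, were higher in TAM in 13 of 15 cases (median 7.10). Arg1, arginase 1, had 1397, 1087, 108, 37 and 229 CPM in TAM libraries, against 1.83, 2.61, 1.42, 5.97 and 1.09 CPM in TC libraries (log2 fold change 7.80, SE 1.18, adjusted p = 0.00042, and 7.16 without TAM 49041). Mrc1, the mannose receptor, had 129, 113, 20.4, 64.4 and 101 CPM in TAM libraries, against 0.432, 0.1, 0.355, 1.99 and 0.544 CPM in TC libraries (log2 fold change 7.03, SE 0.82, adjusted p = 8.78e-05, and 7.81 without TC 49827). Cd163, a haemoglobin scavenger receptor often used as a macrophage marker, was the exception, at 7.76, 1.06, 1.42, 2.33 and 6.53 CPM in TAM libraries and 10, 16.2, 20, 13.5 and 14.9 CPM in TC libraries (log2 fold change -1.96, SE 0.56, adjusted p = 0.014, and adjusted p = 0.0818 in the fit of 32 libraries and adjusted p = 0.0777 with mouse as a block). Of 18 homeostatic microglia genes 17 were higher (median 6.33). P2ry12 had 912, 347, 1681, 1216 and 1467 CPM in TAM libraries, against 2.37, 0.903, 3.81, 29.8 and 1.81 CPM in TC libraries (log2 fold change 7.19, SE 1.15, adjusted p = 0.000565, and 8.91 without TC 49827). Tmem119 had 538, 1024, 1068, 1158 and 1666 CPM in TAM libraries, against 41.1, 20.3, 27, 27.7 and 13.4 CPM in TC libraries (log2 fold change 5.40, SE 0.41, adjusted p = 8.12e-06). Of 15 genes linked to monocyte-derived macrophages 6 were higher and 1, Vim, lower, and 10 were higher without TC 49827. Lyz2 (7.45, and 9.01 without TC 49827) and the coagulation factor gene F10 (8.04, and 8.87 without TC 49059) were among those higher.

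Of 17 genes of disease-associated microglia 16 were higher in TAM (median 5.71), and Spp1, osteopontin, was the exception. It had 447, 5447, 749, 2360 and 2717 CPM in TAM libraries, against 2815, 2793, 1075, 54.9 and 1008 CPM in TC libraries (log2 fold change 0.60, SE 0.89, adjusted p = 0.601). It was thus abundant in both sorts and spread over more than a 10-fold range in each. Engulfment genes were split by receptor. Mertk (5.87) and Axl (3.83) were higher in TAM, and the related Tyro3 (log2 fold change -3.15, SE 0.88, adjusted p = 0.013) and Megf10 (-4.08, and -5.03 without TAM 49059), both found in glia, were lower. Of 15 heme and iron genes 11 were higher and 1, Cd163, lower, and 9 and 4 on unscaled totals. Hmox1, heme oxygenase 1, had 133, 210, 139, 471 and 257 CPM in TAM libraries, against 25.5, 24.9, 22.8, 26.6 and 25.3 CPM in TC libraries (log2 fold change 3.27, SE 0.35, adjusted p = 4.93e-05). The iron exporter Slc40a1 was higher too (log2 fold change 4.05, SE 1.10, adjusted p = 0.0111, and 5.58 without TC 49041).

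Matrix genes were mostly tumour-side transcripts. Of 27 tested, 2 were higher in TAM and 21 lower (median -4.40). Ncan, the brain proteoglycan neurocan, had 21.8, 33.1, 10.3, 81.5 and 16.7 CPM in TAM libraries, against 1271, 1498, 1112, 431 and 1112 CPM in TC libraries (log2 fold change -5.05, SE 0.63, adjusted p = 0.000136, and -5.72 without TAM 49834). Tnc, tenascin C, had 5.03, 18.7, 0.533, 19.6 and 9.79 CPM in TAM libraries, against 419, 475, 161, 35.8 and 345 CPM in TC libraries (log2 fold change -4.74, SE 0.95, adjusted p = 0.00212). Col1a1, fibrillar collagen, had 10.3, 17.8, 0.355, 10.1 and 5.96 CPM in TAM libraries, against 1125, 395, 252, 8.11 and 87.5 CPM in TC libraries (log2 fold change -5.39, SE 1.27, adjusted p = 0.00535, and -4.42 without TC 49041 and adjusted p = 0.0849 by voom with mouse as a random block). It is one of the fibroblast and pericyte markers, whose sum was 6831 CPM in TC of mouse 49041, 97.3 CPM in TC 49827 and 13.8 to 173 CPM in TAM libraries, and the part of such cells in the collagen levels was not tested. The 2 members higher in TAM were Fn1, fibronectin (log2 fold change 2.28, SE 0.87, adjusted p = 0.0494, and 3.02 without TC 49041, adjusted p = 0.0581 with RLE scaling, adjusted p = 0.065 with no filter on low counts, adjusted p = 0.234 without the 3 libraries richest in T and NK markers, adjusted p = 0.0627 without TC 49827, adjusted p 0.0723 to 0.112 without TAM 49041 or TAM 49059 or TAM 49834 or TAM 49849 or TC 49059 or TC 49692 or TC 49849 and 1.53 on unscaled totals), and Sparc (log2 fold change 1.76, SE 0.48, adjusted p = 0.0107, and adjusted p = 0.14 with mouse as a block and 0.97 on unscaled totals), both with overlap.

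Matrix proteases were divided by gene, with 9 of 22 higher in TAM and 9 lower. Their median changes sign with scaling (0.59, or -0.19 on unscaled totals). Of all genes 23.9% were higher and 26.7% lower, which holds beside the integrins below too. Mmp9, gelatinase B, had 95.9, 179, 8.17, 19.6 and 23.4 CPM in TAM libraries, against 0.539, 0.502, 0.266, 0.765 and 0.0907 CPM in TC libraries (log2 fold change 7.26, SE 1.03, adjusted p = 0.000289, and 6.43 without TAM 49059). Mmp12, the macrophage elastase, was higher too (6.77, and 7.99 without TC 49041). The membrane proteases Mmp15, with 0.719, 3.17, 1.6, 5.31 and 2.55 CPM in TAM libraries, against 194, 245, 289, 83.5 and 373 CPM in TC libraries (log2 fold change -6.47, SE 0.62, adjusted p = 3.12e-05), and Mmp16 (-5.64) were lower. Inhibitors were split: Timp2 was higher (2.09), and Timp1 (-3.22, and -2.55 without TC 49059 and adjusted p = 0.0523 by voom with mouse as a random block), Timp3 (-3.53) and Timp4 (-3.52) were lower in TAM. Integrins followed the same division, 9 of 23 higher, Itgam of the TAM gate among them, and 9 lower. Itgb5 (4.90) and Itga6 (5.47, and 6.90 without TC 49827) were higher, and Itgav (-2.58), Itgb8 (-2.71) and Itga7 (-3.35) lower.

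Neural genes lay on the tumour side. Of 21 glutamate and GABA receptor genes tested, 15 were lower in TAM and the other 6 were not called (median -5.03). Gria2, the AMPA receptor subunit, had 6.75, 2.11, 7.81, 22.4 and 8.37 CPM in TAM libraries, against 421, 391, 365, 209 and 535 CPM in TC libraries (log2 fold change -5.34, SE 0.60, adjusted p = 7.09e-05, and -5.93 without TAM 49834). Grik1, a kainate receptor subunit (-6.62, and -7.62 without TAM 49041), and Gabra3, a GABA receptor subunit (-5.88, and -7.01 without TAM 49827), were lower too. Synaptic adhesion genes were 1 higher and 16 lower of 20 (median -4.25), and ion channels and transporters 1 higher and 20 lower of 22 (median -3.74). With mouse as a block 0 and 0 were higher and 14 and 19 lower. Cntn1, a contactin, had 31, 31.7, 26.1, 41.9 and 32.5 CPM in TAM libraries, against 1783, 1448, 1470, 884 and 1373 CPM in TC libraries (log2 fold change -5.41, SE 0.25, adjusted p = 1.32e-06). Neuron markers, summed, were 24.3 to 52.5 CPM in TAM and 202 to 525 CPM in TC libraries.

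Axon guidance genes were 4 higher and 19 lower in TAM of 27 (median -3.25). Sema3a, a repellent semaphorin, had 0, 0.302, 0, 0.996 and 0 CPM in TAM libraries, against 32.2, 32.7, 31.9, 7.04 and 36.7 CPM in TC libraries (log2 fold change -6.74, SE 1.09, adjusted p = 0.000618, and -8.39 without TAM 49834). Netrin 1, Ntn1 (-4.97), its receptor Dcc (-4.56, and -5.35 without TAM 49834), Slit2 (-4.42) and the slit receptor Robo1 (-5.16, and -7.35 without TAM 49849) were lower as well. Sema4d (3.69, and 4.76 without TC 49827) and Plxnb2 (2.32) were among those higher in TAM. Notch pathway genes were 3 higher and 7 lower of 15, beside 23.9% higher and 26.7% lower of all genes. The ligand Dll1 (-2.63, and -3.42 without TAM 49834 and adjusted p = 0.0564 in the fit of 32 libraries) was among the lower. Hedgehog and WNT genes were 1 higher and 13 lower of 20, and 0 and 9 with mouse as a block, with Wnt5a (-5.50, and -8.17 without TAM 49834) and Fzd1 (-5.67, and -6.40 without TAM 49059) among the lower. Imprinted and developmental noncoding RNAs were lower in TAM in 7 of 13 cases and not called in the other 6, and 12 were lower on unscaled totals. Among the lower were Meg3, with 2.3, 3.32, 12.8, 2.99 and 0.568 CPM in TAM libraries, against 60.9, 99.2, 77.9, 148 and 31.5 CPM in TC libraries (log2 fold change -4.25, SE 0.76, adjusted p = 0.00112, and -5.18 without TAM 49827), and Peg3 (-4.58).

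Growth signalling targets were uneven among tumours. Of 14 genes induced by the ERK pathway, 1 was higher and 6 were lower in TAM, where 23.9% of all genes were higher and 26.7% lower. With mouse as a block 3 were higher and 7 lower, against 2605 and 2837 of all 13901 genes. Spry4, a feedback inhibitor of ERK signalling, had 0, 11.8, 0.533, 0.498 and 0.852 CPM in TAM libraries, against 5.5, 495, 7.19, 3.06 and 52.5 CPM in TC libraries (log2 fold change -5.36, SE 1.84, adjusted p = 0.0327, and -7.88 without TAM 49059, -2.67 without TC 49059, adjusted p = 0.166 by voom with mouse as a random block and adjusted p 0.0577 to 0.157 without TAM 49041 or TAM 49827 or TAM 49834 or TAM 49849 or TC 49059). Spry2 had 4.31, 19.3, 2.13, 4.15 and 2.41 CPM in TAM libraries, against 26.4, 651, 59.6, 27.7 and 139 CPM in TC libraries (log2 fold change -4.80, SE 1.13, adjusted p = 0.00522, and -5.79 without TAM 49059 and -3.33 without TC 49059). TC of mouse 49059 was far above the other TC libraries in both genes. Dusp6, an ERK phosphatase, had 291, 914, 430, 291 and 433 CPM in TAM libraries, against 42.2, 488, 7.1, 43.9 and 31.4 CPM in TC libraries. It was not called (log2 fold change 1.94, SE 0.97, adjusted p = 0.12), but was called higher in TAM without that library (log2 fold change 3.88, adjusted p = 0.000998) and with mouse as a block (adjusted p = 0.016).

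All 25 genes of G2/M and mitosis tested were lower in TAM (median -2.46), but the fit that compares libraries within mice called few of them. Mki67, the proliferation marker Ki-67, had 68.3, 29.5, 64.1, 31.9 and 35.8 CPM in TAM libraries, against 246, 273, 335, 93.6 and 369 CPM in TC libraries (log2 fold change -2.52, SE 0.40, adjusted p = 0.000507). Ccnb1, cyclin B1, had 11.1, 6.65, 27, 10.1 and 11.2 CPM in TAM libraries, against 143, 205, 220, 13.5 and 189 CPM in TC libraries (log2 fold change -3.54, SE 0.67, adjusted p = 0.00154, and adjusted p = 0.08 with mouse as a block). TC 49827 was near the TAM range in Mki67, and in Ccnb1 it lay inside that range and below TAM of the same mouse. The other TC libraries were well above the TAM range in both genes. With mouse as a block 5 of 25 were lower, among them Kif11 (adjusted p = 0.00889) and Top2a (adjusted p = 0.0298), and without TC 49827 all 25 were. Mitotic genes were still measured in every TAM library. Of 23 genes of G1/S and DNA replication, 2 were higher and 7 lower in TAM, where 23.9% of all genes were higher and 26.7% lower. With the block 0 were higher and 3 lower, against 2605 and 2837 of all 13901 genes. Rrm2, a ribonucleotide reductase subunit, was lower (log2 fold change -2.67, SE 0.62, adjusted p = 0.00467, and -3.28 without TAM 49041). On unscaled totals 0 were higher and 17 lower.

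D-type cyclins, which start the cycle, were lower in TAM in all 3 cases. Ccnd3 differed least (-1.35, and adjusted p = 0.0627 with mouse as a block and adjusted p = 0.0508 without TAM 49834). Ccnd1 had 35.6, 218, 48.5, 172 and 150 CPM in TAM libraries, against 140, 2221, 1491, 536 and 1288 CPM in TC libraries (log2 fold change -3.18, SE 0.76, adjusted p = 0.0055). TC of mouse 49041 was below TAM of mice 49059, 49834 and 49849. Ccnd2 had 65, 234, 78.1, 198 and 83.7 CPM in TAM libraries, against 435, 1909, 2140, 1259 and 1084 CPM in TC libraries (log2 fold change -3.38, SE 0.53, adjusted p = 0.000514). These groups did not overlap. Their partner kinase Cdk4 was lower (log2 fold change -1.34, SE 0.21, adjusted p = 0.000451) and the related Cdk6 was higher (log2 fold change 3.45, SE 1.06, adjusted p = 0.0198, and 5.26 without TC 49827 and adjusted p = 0.0654 with mouse as a block). The inhibitor genes Cdkn2a (-2.69) and Cdkn2c (-2.18) were lower in TAM.

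Glycolysis genes differed by isoform. Of 27 glycolysis and hypoxia genes tested, 14 were higher in TAM and 5 lower (median 1.00, and 0.22 on unscaled totals). Hk2 (chromosome 6, 82725025 to 82774454, minus strand), hexokinase 2, had 240, 236, 275, 214 and 313 CPM in TAM libraries, against 2.27, 5.92, 3.28, 6.89 and 11.3 CPM in TC libraries (log2 fold change 5.43, SE 0.44, adjusted p = 1.25e-05). Hk1, the common isoform, had 68.4, 82.2, 30.2, 39 and 45.7 CPM in TAM libraries, against 107, 173, 207, 161 and 151 CPM in TC libraries (log2 fold change -1.59, SE 0.29, adjusted p = 0.00119). Hk3 was higher (log2 fold change 6.94, SE 1.11, adjusted p = 0.00059, and 8.71 without TC 49827). Of the phosphofructokinases Pfkl was higher (log2 fold change 1.75, SE 0.24, adjusted p = 0.000222) and Pfkm lower (log2 fold change -2.35, SE 0.22, adjusted p = 2.15e-05). The lactate exporter Slc16a3 was higher in TAM (log2 fold change 4.79, SE 0.63, adjusted p = 0.000172) and the hypoxia gene Adm lower (log2 fold change -3.47, SE 0.97, adjusted p = 0.0127, and -2.89 without TC 49059), which is also the side of Vegfa. Gapdh stood at 0.71 to 4.68 CPM in TAM and 0.539 to 2.27 CPM in TC libraries, and the cause of these low levels was not tested. The levels of genes with many copies are uncertain, as are those of overlapping genes, since the kit does not mark strand.

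For genes of oxidative phosphorylation and the ribosome the direction depended on scaling. Of 27 oxidative phosphorylation genes 1 was higher and 3 lower (median 0.04), against 4 higher and 5 lower without TC 49827 and 0 and 1 with mouse as a block. Of 29 ribosomal protein genes 1 was higher and 0 lower (median 0.20), against 15 higher and 0 lower without TC 49827 (median 0.39). On unscaled totals both medians were below 0 (-0.74 and -0.59), with 24 and 14 genes lower and 0 and 0 higher. Of 21 Polycomb and chromatin genes 3 were higher and 9 lower, with 5 lower with mouse as a block, beside 23.9% higher and 26.7% lower of all genes without the block. Of 16 serine and one-carbon genes 1 was higher and 9 lower. Phgdh, the entry enzyme of serine synthesis, had 27.3, 16.9, 21.7, 28.2 and 25.7 CPM in TAM libraries, against 59.3, 52.6, 64.5, 78 and 66.9 CPM in TC libraries (log2 fold change -1.42, SE 0.18, adjusted p = 0.000138). Gldc, the glycine cleavage enzyme, was lower by more (-4.69).

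The TAM libraries were not alike among themselves. Those of mice 49041 and 49059 held more Arg1, Alox15, Ccr2 and H2-Ab1 than the others, at 1397 and 1087 CPM of Arg1, with 37 to 229 CPM in the others. Fcrls, an Fc receptor-like gene of resident microglia, ran the other way, at 597, 236, 1277, 3400 and 3464 CPM. The TAM library of mouse 49827 had the least Fn1, at 83.1 CPM against 1024 to 1842 CPM, the least Tgfbi, a matrix protein induced by TGF-beta, at 108 CPM against 589 to 1683 CPM, and the most Sall1. With 5 animals of 1 group these differences carry no test. TAM of mice 49041 and 49059 also held the most T and NK markers, at 184 and 214 CPM against 9.41 to 51.7 CPM. So it was for neutrophil markers (1094 and 2886 CPM, against 72.1 to 542 CPM) and dendritic markers (140 and 373 CPM, against 32.8 to 65 CPM). The part of such cells in these differences was not tested.

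The difference between TAM and TC in Rebound tumours was then set against the same difference in Vehicle tumours, as an interaction in 1 fit over all 32 libraries. The CPM of single genes below are on the TMM scale of these 32 libraries, so that a Rebound level differs somewhat from that given above. Of 15668 genes tested, 50 had a larger TAM over TC ratio in Rebound than in Vehicle tumours (0.319%) and 31 a smaller one (0.198%), and the median interaction was -0.04. With mouse as a block 2 and 2 genes were called, and without TC 49827 453 and 152. On unscaled totals 89 and 19 genes were called, 82.4% of them larger, against 61.7% with TMM. The call was also sensitive to other single libraries: it fell to 22 larger and 14 smaller without Rebound TAM 49834, 26 and 15 without Vehicle TC 54359, 30 and 19 without Rebound TC 49059, and 28 and 22 without Rebound TC 49692. Larger ratios numbered 30 without Rebound TAM 49041, Rebound TC 49849 or Vehicle TAM 57682 and 31 without Vehicle TAM 57098, and smaller ones 17, 18 and 19 without Rebound TAM 49059, Rebound TC 49041 or Vehicle TAM 64247. Myeloid markers summed to 220 to 1932 CPM in Vehicle TC libraries. Counts of Vehicle libraries were deposited on another footing, odd and even where those of Rebound libraries are even only, and this cannot be told apart from treatment.

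Bcas1 and Cldn11 were among the 10 genes with the largest increases of the ratio in Rebound tumours, and both were more abundant in Rebound than in Vehicle TAM. Bcas1, which marks oligodendrocytes that begin to form myelin, had 85.8 ± 62.4 CPM in Rebound TAM and 290 ± 190 CPM in Rebound TC libraries, against 9.91 ± 4.76 CPM in Vehicle TAM and 556 ± 165 CPM in Vehicle TC libraries (interaction 4.05, SE 0.61, adjusted p = 0.000913). Cldn11, a myelin tight junction protein, had 32.8 ± 19.4 CPM in Rebound TAM and 222 ± 174 CPM in Rebound TC libraries, against 1.02 ± 0.54 CPM in Vehicle TAM and 173 ± 102 CPM in Vehicle TC libraries (interaction 4.66, SE 0.85, adjusted p = 0.00507, and 5.24 without Rebound TC 49041). With mouse as a block neither was called (adjusted p = 0.063 and 0.092). Oligodendrocyte markers summed to 831 to 3913 CPM in Rebound TAM and 288 to 713 CPM in Vehicle TAM libraries, and their part in these results was not tested. The 8 marker genes had a median interaction of 2.85. None was called by edgeR, with 7 at an unadjusted p under 0.05, 2 by DESeq2 and 4 without TC 49827.

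Genes with a smaller ratio in Rebound tumours were led by Serpinf1, a secreted inhibitor of vessel growth, with 8.39 ± 3.98 CPM in Rebound TAM and 61.9 ± 58.8 CPM in Rebound TC libraries, against 89.2 ± 28.8 CPM in Vehicle TAM and 9.04 ± 5.88 CPM in Vehicle TC libraries (interaction -6.18, SE 0.72, adjusted p = 2.04e-05, and -5.47 without Rebound TC 49041). Its mean was higher in TAM than TC in Vehicle tumours and lower in Rebound tumours. The interaction was called with mouse as a block too (adjusted p = 0.00126). Rebound libraries overlapped, at 4.4 to 14.9 CPM in TAM and 8.59 to 159 CPM in TC. Rebound TC 49041 held the most fibroblast and pericyte markers (6831 CPM), and the part of such cells in this gene was not tested. Phgdh had 22.1 ± 4.09 CPM in Rebound TAM and 62.4 ± 9.17 CPM in Rebound TC libraries, against 151 ± 54.5 CPM in Vehicle TAM and 87.6 ± 6.01 CPM in Vehicle TC libraries (interaction -2.28, SE 0.36, adjusted p = 0.00139) and was also called with the block (adjusted p = 0.0267). Col15a1 (interaction -5.92, SE 1.00, adjusted p = 0.00247, and -4.80 without Rebound TC 49041) and Pdgfrb (interaction -3.98, SE 0.79, adjusted p = 0.0128) were not called with it (adjusted p = 0.165 and 0.129), and lie beside the fibroblast and pericyte markers, which summed to 97.3 to 6831 CPM in Rebound TC and 11.3 to 135 CPM in Vehicle TC libraries. Igf1 had 427 ± 99 CPM in Rebound TAM and 4.81 ± 3.37 CPM in Rebound TC libraries, against 57.3 ± 31.3 CPM in Vehicle TAM and 2.46 ± 1.9 CPM in Vehicle TC libraries, and the interaction was not called (interaction 1.92, SE 1.05, adjusted p = 0.424).

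**Figure D5:**
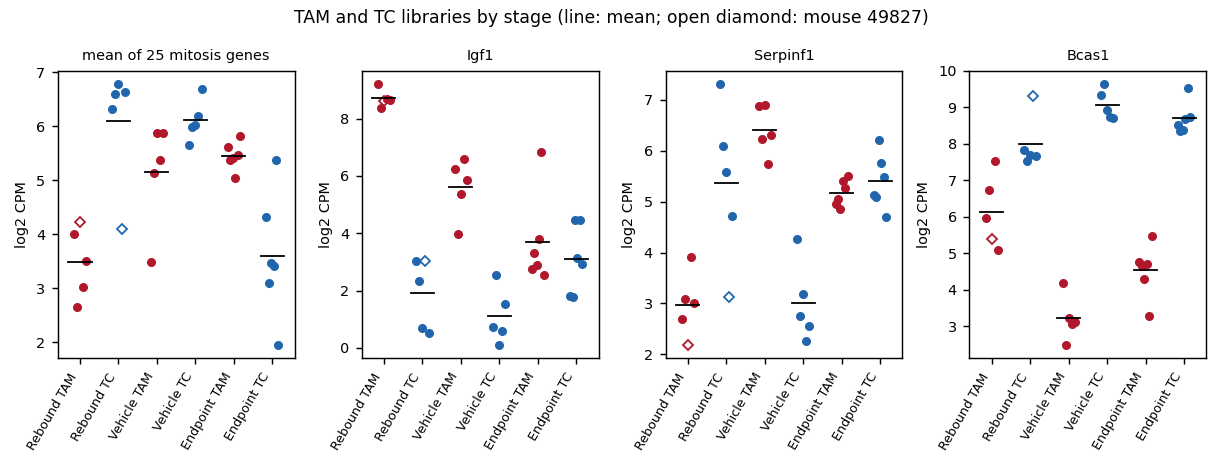
Log2 CPM in every TAM (red) and TC (blue) library of the Rebound, Vehicle and Endpoint groups, with lines for group means and open diamonds for mouse 49827. The mean of 25 mitosis genes lies lower in TAM than TC of Rebound tumours (medians 3.51 and 6.60) and higher in TAM than TC of Endpoint tumours (5.45 and 3.45), Igf1 is highest in Rebound TAM, Serpinf1 turns its direction against Vehicle, and Bcas1 is higher in Rebound than in Vehicle TAM.

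Against the Endpoint group, the dormant tumours of mice under the same agent, the same interaction was called in far more genes, 2100 larger (13.4%) and 1125 smaller (7.18%) of 15668, with a median of 0.15. Without TC 49827, 3161 were larger, and without Endpoint TC 49843, 1812 were smaller. On unscaled totals 1220 and 3024 were called, 28.7% of them larger against 65.1%, and the median was -0.44. Igf1 had 427 ± 99 CPM in Rebound TAM and 4.81 ± 3.37 CPM in Rebound TC libraries, against 26.2 ± 43.2 CPM in Endpoint TAM and 11.2 ± 8.73 CPM in Endpoint TC libraries (interaction 5.22, SE 1.05, adjusted p = 0.00109, and 6.83 without Endpoint TAM 49843), so that the TAM over TC ratio of this ligand was larger in Rebound tumours. Arg1 had 537 ± 590 CPM in Rebound TAM and 2.51 ± 1.91 CPM in Rebound TC libraries, against 1.42 ± 0.604 CPM in Endpoint TAM and 2.48 ± 1.3 CPM in Endpoint TC libraries (interaction 8.59, SE 1.14, adjusted p = 3.06e-05, and 7.95 without Rebound TAM 49041). Of 12 class II genes 11 had a larger ratio, and so had 16 of 27 glycolysis genes. Among 17 complement genes 12 had a larger ratio, Itgam of the TAM gate included, and 1 a smaller one. Myeloid markers summed to 87.5 to 2591 CPM in Rebound TC and 1407 to 8828 CPM in Endpoint TC libraries, and their part in these ratios was not tested. Among the 10 genes with the largest interactions was the choroid plexus transcript Otx2 (interaction 9.38, SE 1.95, adjusted p = 0.00136, and 10.84 without TC 49827, 10.03 without Endpoint TAM 49825, 8.31 without Endpoint TC 49845 and 8.73 without Rebound TAM 49041), beside ependymal and choroid plexus markers that summed to 1.15 to 953 CPM in Rebound TC and 5145 to 183058 CPM in Endpoint TC libraries.

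All 25 mitosis genes had a smaller ratio in Rebound than in Endpoint tumours (median interaction -4.13), as had 14 of 23 genes of G1/S. Plk1 had 8.4 ± 2.25 CPM in Rebound TAM and 67.9 ± 34.3 CPM in Rebound TC libraries, against 30.8 ± 9.69 CPM in Endpoint TAM and 7.96 ± 7.18 CPM in Endpoint TC libraries (interaction -4.98, SE 0.70, adjusted p = 4.3e-05, and -5.66 without Endpoint TC 49843). In Endpoint tumours this gene was thus higher in TAM than in TC, and in Rebound tumours lower. The TC sorts themselves differed in make-up. Glial progenitor markers summed to 2531 to 8104 CPM in Rebound TC and 316 to 2534 CPM in Endpoint TC libraries, and oligodendrocyte markers to 312 to 14763 CPM and 17879 to 28878 CPM. The part of this in the mitosis ratios was not tested. Fbn2, a fibrillin (interaction -6.29, SE 1.16, adjusted p = 0.000507, and -8.75 without Endpoint TC 49843), and Col15a1 (interaction -4.96, SE 0.94, adjusted p = 0.000635, and -5.80 without Endpoint TC 49843 and -3.84 without Rebound TC 49041) had smaller ratios as well.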

How the data were processed

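RNA of the sorted cells went through a SMART-Seq kit that gives no strand information and was read as pairs of 50 bases, per the labels' protocols. Reads were aligned with STAR 2.3.0e to mm10, and SAMtools was used, per the submitters' processing notes. How reads were assigned to genes is not given in the sources used here. The authors deposited 1 table of whole-number counts per gene, with no normalization in it. All counts of libraries from mice under BLZ945 are even.

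From these counts, edgeR 4.0.16 (R 4.3.3) fitted the 10 Rebound libraries in 2 groups after its filter on low counts, with TMM scaling, and the quasi-likelihood test with Benjamini-Hochberg adjustment was used at 0.05. A fit of 6 groups over all 32 libraries tested the interactions with Vehicle and Endpoint. The p-values measure the spread between libraries, each from 1 mouse and sort. No pair of libraries of 1 group agreed within sampling noise. The scripts were tested on simulated data.

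Alternatives were other scaling (RLE from DESeq2, total counts), DESeq2 1.42.0, no filter, halved counts, a 2-fold test, limma 3.58.1 voom with mouse as a random block (consensus correlation 0.138), Rn45s removed, each library left out, and mouse as a block. The block rests on 4 mice that gave both sorts; deviations of their TAM and TC libraries from the group means correlated at 0.154, 0.0594, 0.0343 and 0.108, where the highest value with another mouse was 0.105, 0.117, 0.0368 and 0.0537.

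Genes were named as members of the gene lists and ligand and receptor pairs, as the 15 largest differences each way at 50 CPM or more without overlap, as the 10 largest interactions each way, or among the 10 most abundant genes. Members, lists and tests were chosen with earlier results of these data known. Some genes and 1 ligand and receptor pair are not reported here. Coordinates are from GENCODE M21 (GRCm38), in which 20961 of 23337 symbols were found, and promoter windows from RefSeq.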

Additional observations from a re-analysis of the deposited data

Results flagged for a closer look

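In groups of 5 libraries, a library was singled out where its gap to the nearest other library exceeded 0.71 of the range of the group on the log2 scale, a limit that chance passes in about 1 of 20 groups. Of 172 groups examined 23 passed it, 17 of them in the TC library of mouse 49827. The TC library of mouse 49827 was the highest TC library in this sense for the marker lists of myeloid cells (0.861), T and NK cells (0.815), B cells (0.762) and dendritic cells (0.753). It was also the highest for Sema4d (0.947), C1qc (0.872), Ccr2 (0.86), Pik3cg (0.842), Itgam (0.841), Cx3cr1 (0.763), Fcrls (0.754), Il1b (0.722) and Sfpi1 (0.713). It was the lowest for the semaphorin gene Sema3a (0.913), the cyclin gene Ccnb1 (0.845), the proteoglycan gene Ncan (0.761) and Spp1 (0.739). Pdgfa was highest in TC of mouse 49059 (0.712). Among TAM libraries, Il34 was lowest in mouse 49827 (0.891), Csf1r (0.822) and Tgfb2 (0.742) in mouse 49059, Pik3cg (0.723) in mouse 49041, and the erythroid markers were highest in mouse 49849 (0.716).

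The TAM over TC difference itself differed between stages, by a test of the interaction, for genes described above. Against Vehicle tumours it was larger in Rebound tumours for Cldn11 (4.66 on the log2 scale) and Bcas1 (4.05), and smaller for Serpinf1 (-6.18), Col15a1 (-5.92), Pdgfrb (-3.98) and Phgdh (-2.28). Of these, Serpinf1 and Phgdh were also called with mouse as a block. Against Endpoint tumours it was larger for Otx2 (9.38), Arg1 (8.59) and Igf1 (5.22), and smaller for Fbn2 (-6.29), Plk1 (-4.98) and Col15a1 (-4.96).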

How the results depend on the processing

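Leaving out each library in turn gave 2836 to 3777 genes higher and 3405 to 4069 lower in Rebound TAM than in TC, 22 to 453 larger and 14 to 152 smaller interactions with Vehicle, and 1596 to 3161 larger and 873 to 1812 smaller interactions with Endpoint, the upper ends without TC 49827 except for the last, which was without Endpoint TC 49843. With mouse as a block, 2605 genes were higher and 2837 lower, 5253 of the 7031 calls remained in their direction, and the interactions with Vehicle were 2 and 2. The block changed the calls printed beside their genes and no other call of a gene named with its fold change. It also moved counts of lists printed without a block value, of which some follow. Higher genes went from 17 to 14 in inflammatory cytokines and receptors, and from 16 to 14 in macrophage factors. Lower genes went from 12 to 9 in cholesterol synthesis and from 10 to 8 in the IGF system. PI3K components went from 6 higher and 6 lower to 8 and 4. Ccr2, Ikzf1, Pik3cd and Pik3r5, which were not called, were called higher by DESeq2, by voom with mouse as a random block and in the fit of 6 groups, and Dusp6 by voom and in the fit of 6 groups. Total counts with no scaling factor gave 1702 higher and 7383 lower genes in Rebound, 89 and 19 interactions with Vehicle and 1220 and 3024 with Endpoint. The test against a 2-fold change called 1633 and 2255 genes. Of 177 gene results it ended 14 calls that carry no such value beside the gene. Among them were Akt2 (adjusted p = 0.71), Pik3r1 (adjusted p = 0.757) and Cdk4 (adjusted p = 0.0622). For the interaction with Vehicle, DESeq2 called 248 and 124, and the fit without the 3 Rebound libraries with the most T and NK markers, an alternative chosen after seeing the data, 278 and 80. The cause of these differences was not tested.

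Over the 190 gene results and 4079 alternative values, 3969 kept direction and side of the threshold, 73 lost the call, 28 gained it and 9 changed sign. The sign changed for Cd47 on total counts (-0.09), for Spp1 on total counts (-0.17) and without the 3 libraries (-0.08), and for C4b with mouse as a block (0.19), with voom and mouse as a random block (0.14), and between -0.28 and 0.35 without single libraries. Spp1 and C4b were not called to begin with. The depth limits genes at a few counts, such as Clec4n, whose fold rests on a floor of 3 counts.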
